A study of Mus musculus with 6 samples.

Results

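The PER and CRY genes and the genes that set the stability of their proteins were examined in mouse lung by RNA sequencing. They are the repressor arm of the circadian clock. Members were taken by gene symbol from the deposited count table: Per1, Per2, Per3, Cry1, Cry2, Csnk1d, Csnk1e, Fbxl21 and Btrc, which are 9 of the 41388 genes in the table. All 9 passed the filter on low counts and were among the 18660 genes tested.

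The study asked whether the Zpbp2 region and the clock regulate each other, and for that it compared mice that lack the start of Zpbp2 with control mice. Knock-out mice (KO) were of the strain B6.129S7-Zpbp2tmZuk/Mmjax, in which exons 1 to 3 of Zpbp2 are deleted in all tissues on a C57BL/6J background. Wild type mice (WT) were C57BL/6J of the same colony. All lungs were taken at ZT7 (Zeitgeber time, 7 h into the light phase), with 3 libraries in each genotype. The study calls the mice of its time series adult and does not repeat the age for the sequenced mice. The labels give neither the age in weeks nor the sex of the mice, and 1 time of day does not show the phase or the amplitude of a rhythm.

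The clock is a feedback loop of transcription. CLOCK or NPAS2 pairs with BMAL1 (gene Arntl), binds E-box elements and drives the Per and Cry genes, and PER and CRY proteins then enter the nucleus as a complex that stops this activity. Casein kinases mark PER proteins for destruction through BTRC, and the F-box protein FBXL21 acts on CRY proteins. In mouse lung Nr1d1, Dbp and then the Per genes come to their peaks through the light phase and the early dark phase, and Cry1 peaks later in the night.

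Libraries held between 59134950 and 71354388 counts. KO2 and KO3 differed by little more than counting noise (median variance 1.71 to 3.33 times that of counting over 4 ranges of counts, against 1.86 to 156 times in the other pairs of a genotype, where it grew with the count). Although the labels give them different mouse numbers, they were counted as 1 sample, which leaves 3 WT and 2 KO samples in the tests unless stated otherwise. Zpbp2 had 20, 15 and 7 counts in WT1 to WT3 and 1, 0 and 0 counts in KO1 to KO3, as the labels have it. Some libraries stood apart from the others. Squamous epithelium markers (11 genes) summed to 4729 counts per 1000000 reads (CPM) in WT3 and 9033 CPM in KO1 and to at most 5.35 CPM elsewhere. Erythroid markers (6 genes) reached a sum of 18986 CPM in KO2 and 19729 CPM in KO3, with 3965 CPM in KO1 and 2398 to 5520 CPM in WT. Hepatocyte markers (7 of 8 listed genes in the table) reached 45.3 CPM in KO2 and 45.0 CPM in KO3, with 6.60 CPM in KO1 and 2.95 to 3.93 CPM in WT. Club cell markers (4 genes), which identify airway cells, reached 48787 CPM in KO2 and 48608 CPM in KO3, with 36803 CPM in KO1 and 27425 to 32194 CPM in WT. Alveolar type 2 markers, which check the tissue label, summed to 20726 to 21701 CPM in WT and 29432 to 31115 CPM in KO. No marker in these lists was at 0 in every library. Adipocyte markers (10 genes) summed to 141 to 320 CPM in KO and 824 to 1399 CPM in WT. Cardiomyocyte markers (10 genes) summed to 1369 to 1599 CPM in KO and 2623 to 7363 CPM in WT. In lung tissue, fewer cells of a type and less RNA per cell cannot be told apart.

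Levels were first set in order at ZT7, per kilobase of exon so that genes of different length can be compared. Csnk1d was the highest at 36.9 to 41.7 CPM per kb over the 6 libraries. Per1 followed at 16.0 to 32.9, and Csnk1e at 20.5 to 21.9 CPM per kb, and the libraries of these neighbours overlapped in both genotypes. Cry2 was next at 14.4 to 17.6 CPM per kb. Per3 had 7.16 to 13.5 and Per2 5.21 to 12.6 CPM per kb, and these neighbours overlapped in KO but not in WT. Cry1 lay below all of them at 3.38 to 3.58 CPM per kb. Btrc had 2.56 to 2.79 and Fbxl21 0.208 to 0.424 CPM per kb. The order was thus led by a PER kinase and the early PER gene, with Cry1 and both ligase genes at the end. It depends on the length used, since Btrc moved up to the sixth place, past Per2 and Cry1, and Csnk1e past Per1 when the longest transcript took the place of all exons.

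**Figure D1:**
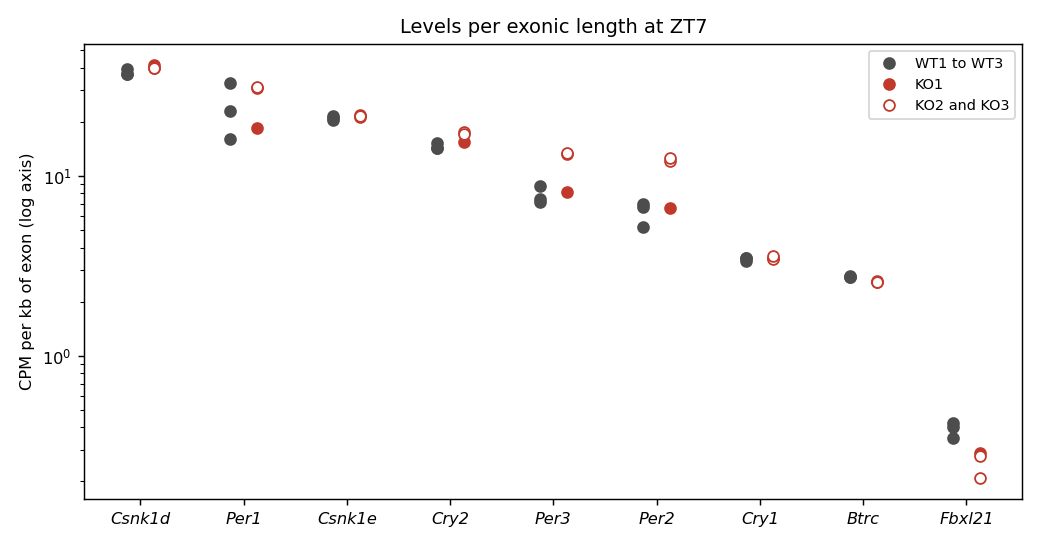
Levels of the 9 genes in CPM per kb of exon (log axis), with 1 point per library, grey for WT, filled red for KO1 and open red for KO2 and KO3. Csnk1d is at 36.9 to 41.7 and Fbxl21 at 0.208 to 0.424, and the points of the Per genes are spread more widely than those of Cry1 or the kinases.

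Among the genes that could be matched to RefSeq promoter windows on GRCm38.p6, which run from 250 bases before the start to 50 bases after it, 6 members had 10 windows. Known clock elements were searched in them on both strands after the windows had been read: the E-box CACGTG, the D-box TTATGTAA bound by DBP, TEF and HLF, the cAMP element TGACGTCA and the ROR element core TAGGTCA, none of which overlapped another in these windows. The 3 windows with a match are shown with the match in capitals, from the plus strand of chr11:69098699-69098998 for Per1 and the minus strands of chr4:151044616-151044915 for Per3 and chr10:85185005-85185304 for Cry1.

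Per1: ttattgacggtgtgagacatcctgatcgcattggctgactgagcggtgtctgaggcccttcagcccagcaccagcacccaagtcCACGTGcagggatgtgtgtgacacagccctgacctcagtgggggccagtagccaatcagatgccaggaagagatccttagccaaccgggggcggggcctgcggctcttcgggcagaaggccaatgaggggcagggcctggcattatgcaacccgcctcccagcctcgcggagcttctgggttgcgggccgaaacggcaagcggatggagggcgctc

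Per3: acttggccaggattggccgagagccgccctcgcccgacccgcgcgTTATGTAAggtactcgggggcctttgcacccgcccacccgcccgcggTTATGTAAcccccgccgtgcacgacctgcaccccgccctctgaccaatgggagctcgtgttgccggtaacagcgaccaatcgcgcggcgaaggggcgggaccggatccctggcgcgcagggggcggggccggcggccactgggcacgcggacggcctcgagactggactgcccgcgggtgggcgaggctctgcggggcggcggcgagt

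Cry1: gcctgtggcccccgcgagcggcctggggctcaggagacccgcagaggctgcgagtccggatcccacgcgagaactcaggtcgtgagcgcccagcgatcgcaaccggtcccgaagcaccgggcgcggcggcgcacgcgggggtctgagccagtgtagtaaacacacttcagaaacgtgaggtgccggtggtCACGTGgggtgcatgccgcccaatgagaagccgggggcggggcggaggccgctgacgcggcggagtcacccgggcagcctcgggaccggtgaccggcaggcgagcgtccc

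Per3 held 2 D-boxes, whose first bases are at -205 and -158 from the start, and 0.938% of all 32851 windows held any. Per1 and Cry1 held 1 E-box each, at -166 and -60, as did 7.15% of all windows. The cAMP element (1.79% of all windows) and the ROR element core (2.61%) were in none of the members' windows, which says only that these letters are not there. The other Per1 window and those of Cry2, Csnk1e and Fbxl21 held none of the 4 elements.

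None of the 9 genes was called in the comparison of KO with WT, where calls needed an adjusted p of at most 0.05 in the edgeR quasi-likelihood test. Over all tested genes 2.28% were called, 1.38% higher and 0.906% lower in KO, so 0 of 9 does not stand apart from this background. With the edgeR p-value taken before adjustment, 1 member (Fbxl21) was at or under 0.05, as were 27.3% of all genes. DESeq2 also called 0 members (4 were at or under 0.05 before adjustment), where it called 21.0% of all genes and 30.8% were at or under 0.05 before adjustment. The edgeR exact test called 0 members as well (0 with p ≤ 0.05 before adjustment), against 1.12% and 8.59% of all genes. By estimate 7 members were higher and 2 lower in KO, with a median log2 fold change of 0.06 against 0.02 over all genes. Libraries of KO differed among themselves in the Per genes. The mean of KO2 and KO3 was at least 1.5 times KO1 for Per1, Per2 and Per3 and for no other member, a difference that 8.84% of all tested genes showed. The reverse, KO1 at 1.5 times the others or more, was seen in 0 members and 8.03% of all genes.

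Per1, the period gene that also answers quickly to light, cAMP and glucocorticoid signals, lies on chromosome 11 (ENSMUSG00000020893, GRCm38, 69095217 to 69109960, plus strand), 29.4 Mb from Zpbp2. Its levels were 90.1, 130 and 185 CPM in WT1 to WT3 and 104, 175 and 177 CPM in KO1 to KO3. WT1 and KO1 were low, WT3, KO2 and KO3 were high, and the genotypes overlapped over nearly their whole range. WT averaged 135 ± 47.7 CPM (SD, n = 3), against 140 ± 51.1 CPM for KO (SD, n = 2). This gives a log2 fold change of 0.06 (SE 0.37, 95% interval -0.88 to 1.0), with an edgeR adjusted p of 0.936. The direction turned with single libraries. It was -0.16 without WT1 and -0.38 with KO1 as the only KO sample, and 0.35 without WT3 and 0.38 without KO1.

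Per2, the period gene whose loss impairs the rhythm most among single Per genes, lies on chromosome 1 (ENSMUSG00000055866, 91415982 to 91459324, minus strand). It was at 30.5, 41.1 and 39.3 CPM in WT1 to WT3 and at 38.7, 71.1 and 73.7 CPM in KO1 to KO3. KO1 lay inside the WT range, and KO2 and KO3 lay far above it, at 1.96 times the WT mean in their average. WT averaged 37.0 ± 5.66 CPM (SD, n = 3), against 55.6 ± 23.8 CPM for KO (SD, n = 2). For Per2 the estimated log2 difference of KO from WT was 0.60 (SE 0.29, 95% interval -0.14 to 1.33), with an edgeR adjusted p of 0.257, which was not called.

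Per3, the third period gene, which is strongly rhythmic in peripheral tissue but dispensable for the rhythm itself, lies on chromosome 4 (ENSMUSG00000028957, 151003652 to 151044665, minus strand). It was at 68.8, 84.2 and 71.7 CPM in WT1 to WT3 and at 78.1, 128 and 130 CPM in KO1 to KO3. As for Per2, KO1 lay among the WT libraries and KO2 and KO3 above them. WT averaged 74.9 ± 8.17 CPM (SD, n = 3), against 104 ± 35.9 CPM for KO (SD, n = 2). The log2 fold change of 0.47 (SE 0.23, 95% interval -0.11 to 1.05) had an edgeR adjusted p of 0.253.

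The size of the Per2 and Per3 estimates depended on which KO sample was kept, and the rise came from the merged KO2 and KO3. With KO1 as the only KO sample the log2 fold changes were 0.07 for Per2 and 0.06 for Per3. Without KO1, where the merged KO2 and KO3 were the only KO sample, they were 0.97 and 0.78. Without both WT3 and KO1, the libraries with squamous epithelium transcripts, all 3 Per genes were called higher in KO in edgeR. The log2 fold changes were then 0.68 for Per1 (adjusted p 0.0410, range 0.0410 to 1 over 17 alternatives), 1.01 for Per2 (0.00570, range 0.00570 to 0.838) and 0.75 for Per3 (0.00745, range 0.00745 to 0.785). In that fit 2 WT samples faced the merged KO2 and KO3 alone, so that the KO sample was assumed to vary as WT does, and 11.9% of all genes were called, and 6.01% of all genes were called higher in KO. The erythroid, hepatocyte and club cell markers given above also set KO2 and KO3 apart from KO1, and their part in the Per levels was not tested. With the 6 libraries kept separate, Per2 and Per3 had edgeR adjusted p values of 0.0955 and 0.0928 and were not called, where 18.9% of all genes were called and 9.81% called higher.

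**Figure D2:**
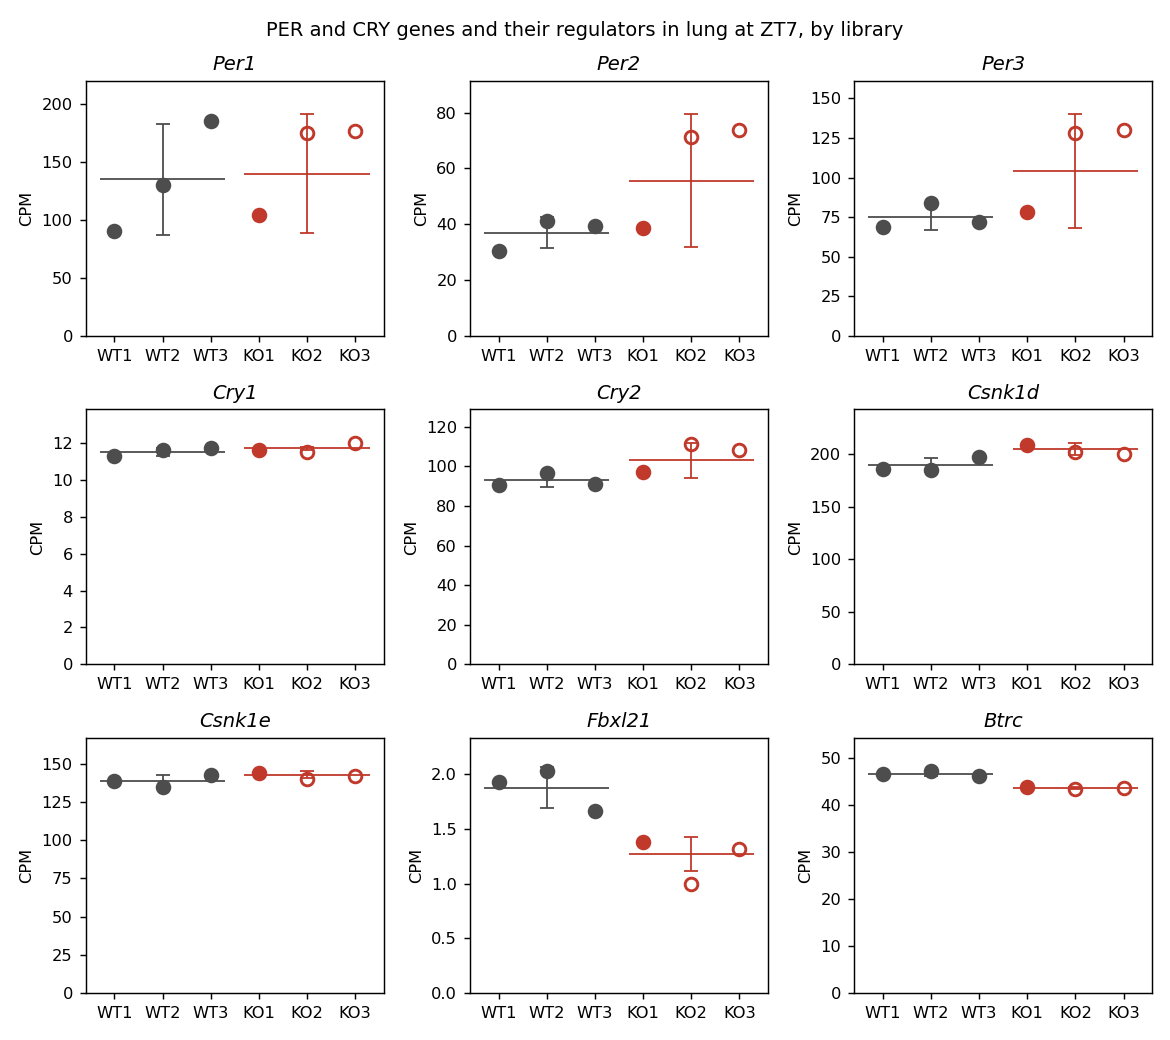
CPM of each gene in the 6 libraries, grey for WT and red for KO, with open points for KO2 and KO3, which were counted as 1 sample. Lines are means and bars the SD (n = 3 for WT, n = 2 for KO), and every axis starts at 0. KO1 stays near WT for Per2 and Per3 while KO2 and KO3 are at 71.1 to 130 CPM, and Cry1 is at 11.3 to 12.0 CPM throughout.

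Cry1 and Cry2 encode the cryptochromes, which are the main repressors of CLOCK and BMAL1 (loss of Cry1 shortens the period of the rhythm, and loss of Cry2 lengthens it). Cry1 (ENSMUSG00000020038, chromosome 10, 85131700 to 85185064, minus strand) was at 11.3, 11.6 and 11.7 CPM in WT1 to WT3 and 11.6, 11.5 and 12.0 CPM in KO1 to KO3. All 6 libraries lay within this narrow band. Its log2 fold change of 0.02 (SE 0.08) had a 95% interval of -0.17 to 0.22 and an edgeR adjusted p of 0.868, and its sign was negative with library size alone as the scaling (-0.03).

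Cry2 (ENSMUSG00000068742, chromosome 2, 92403646 to 92434043, minus strand) was at 90.7, 96.7 and 91.3 CPM in WT1 to WT3 and at 97.1, 111 and 108 CPM in KO1 to KO3. Every KO library was above every WT library, KO1 only just, as for 20.0% of all tested genes. WT averaged 92.9 ± 3.33 CPM (SD, n = 3), against 103 ± 8.86 CPM for KO (SD, n = 2). Its log2 fold change of 0.16 (SE 0.07, 95% interval -0.03 to 0.35) had an edgeR adjusted p of 0.237, and it was 0.24 without KO1 and 0.06 with KO1 as the only KO sample. Its exons share 295 bases with the opposite-strand gene D930015M05Rik, which had 1 to 4 counts in a library.

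Csnk1d and Csnk1e encode casein kinases 1 delta and epsilon, which phosphorylate PER proteins. Csnk1d (ENSMUSG00000025162, chromosome 11, 120961749 to 120991330, minus strand, 22.4 Mb from Zpbp2) was at 186, 185 and 197 CPM in WT1 to WT3 and at 209, 202 and 200 CPM in KO1 to KO3. Each KO library exceeded each WT library by a small margin, as for 20.0% of all genes. For this kinase the log2 fold change of 0.12 (SE 0.05, 95% interval -0.02 to 0.26) had an edgeR adjusted p of 0.240, and it was 0.06 with library size alone. Csnk1e (ENSMUSG00000022433, chromosome 15, 79417856 to 79455566, minus strand) was at 139, 135 and 143 CPM in WT1 to WT3 and at 144, 140 and 142 CPM in KO1 to KO3. These groups overlapped, with a log2 fold change of 0.04 (SE 0.05, 95% interval -0.09 to 0.17) and an edgeR adjusted p of 0.647, and the sign was negative with library size alone (-0.01). Csnk1e shares 267 exon bases with the antisense gene Gm16059, which had 0 to 4 counts, and Csnk1d shares 63 with Gm28192, not analysed here.

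Fbxl21 and Btrc encode F-box proteins of ubiquitin ligases, FBXL21 for cryptochromes in the cytoplasm and BTRC for phosphorylated PER proteins. Fbxl21 (ENSMUSG00000035509, chromosome 13, 56522472 to 56537898, plus strand) had 141, 143 and 100 counts in WT1 to WT3 and 87, 62 and 77 counts in KO1 to KO3. This gives 1.93, 2.03 and 1.67 CPM in WT and 1.38, 0.999 and 1.32 CPM in KO, so that all KO libraries, KO1 included, were below all WT libraries, as for 20.7% of all genes. The means were 1.88 ± 0.189 CPM (SD, n = 3) and 1.27 ± 0.157 CPM (SD, n = 2). The log2 fold change of -0.56 (SE 0.18) had a 95% interval of -1.03 to -0.10 and an unadjusted p of 0.0257 in edgeR, but an adjusted p of 0.131. It was negative under all 17 alternatives, from -0.78 to -0.44, and called under none, with adjusted p values of 0.0577 to 0.856. The adipocyte, alveolar type 2, club cell, hepatocyte and cardiomyocyte sums given above also separated all KO from all WT libraries, and their part in the Fbxl21 and Btrc levels was not tested.

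Btrc (ENSMUSG00000025217, chromosome 19, 45363734 to 45530013, plus strand) was at 46.6, 47.2 and 46.2 CPM in WT1 to WT3 and at 43.8, 43.4 and 43.6 CPM in KO1 to KO3. KO libraries were close to each other and all below WT, as for 20.7% of all genes. Here a log2 fold change of -0.09 (SE 0.04, 95% interval -0.20 to 0.02) had an edgeR adjusted p of 0.240. It was -0.15 with library size alone, and with an offset for gene length and GC content its sign turned, to 0.23. Btrc shares 235 exon bases with the pseudogene Gm6807, which had 2 to 5 counts.

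**Figure D3:**
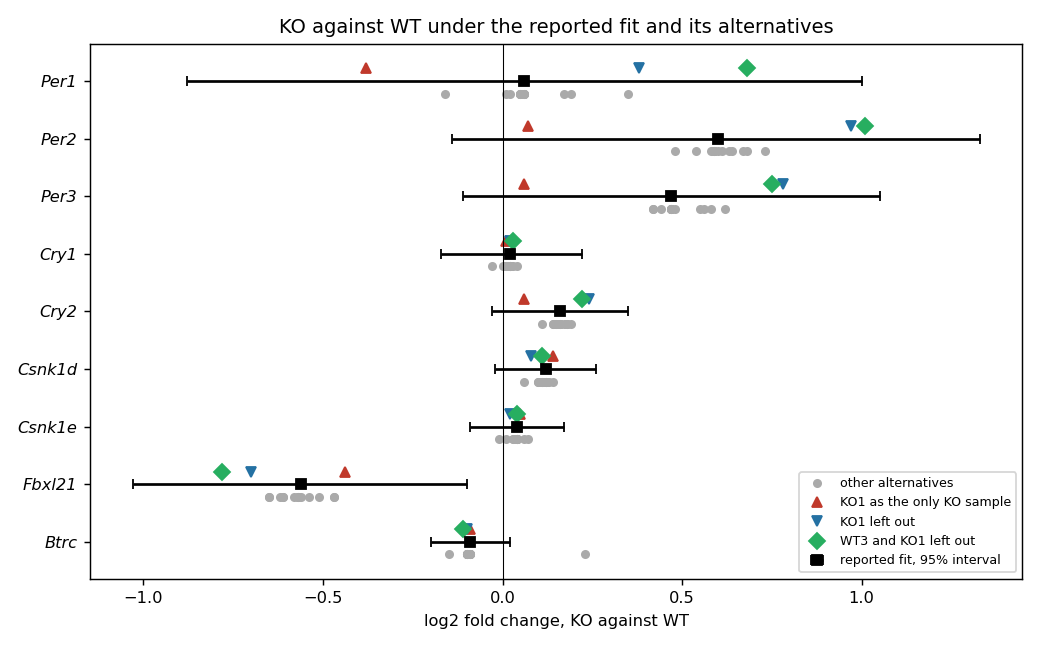
Log2 fold change of KO against WT for each gene (black squares, with the 95% interval), with the alternatives as coloured and grey points. For Per2 and Per3 the estimate with KO1 as the only KO sample (red) is at 0.07 and 0.06 and that without KO1 (blue) at 0.97 and 0.78, while every point of Fbxl21 lies between -0.78 and -0.44.

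Ratios between members do not depend on library scaling, and 5 were computed per kilobase of exon. Per1 over Per2 was 3.07, 3.29 and 4.90 in WT1 to WT3 and 2.79, 2.56 and 2.5 in KO1 to KO3. Csnk1d over Csnk1e was 1.76, 1.80 and 1.81 in WT and 1.91, 1.89 and 1.86 in KO. Cry1 over Cry2 was 0.23 to 0.24 in WT and 0.23, 0.20 and 0.21 in KO1 to KO3. The genotypes did not overlap in any of the 3, but for Cry1 over Cry2 the values of WT2 and KO1 are the same to the 2 digits printed. Each of the 3 had a two-sided exact permutation p of 0.2, the smallest that 3 samples against 2 can give. After Benjamini-Hochberg adjustment over the 5 ratios it was 0.333, so this permutation test cannot reach the threshold with these samples. Per2 over Cry1 was 1.54 to 2.02 in WT, 1.90 in KO1 and 3.52 in both KO2 and KO3 (exact p 0.6). Per3 over Per1 was 0.45, 0.38 and 0.23 in WT and 0.43 to 0.44 in KO (exact p 0.6). Single libraries moved the log2 difference of KO from WT by over 1.5 times for 4 ratios. Without WT3 it went from -0.47 to -0.26 for Per1 over Per2 and from 0.37 to 0.08 for Per3 over Per1, which was at 0.57 without WT1. Without KO1 it went from 0.51 to 0.96 for Per2 over Cry1 and from -0.13 to -0.21 for Cry1 over Cry2.

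Profiles were then compared across the 6 libraries for the members with the largest fold changes, by the root mean square difference of log2(CPM + 1) after centring. Closest to Per2, whose own profile had a root mean square of 0.464, were Zbtb16 (0.102), Fgg (0.120) and Per3 (0.120). Zbtb16, a glucocorticoid-induced zinc finger gene, was at 13 to 17.4 CPM in WT, 14.4 CPM in KO1 and 30.1 and 30.3 CPM in KO2 and KO3. Fgg, a fibrinogen chain gene of liver, was at 0.382 to 0.450 CPM in WT, 0.444 CPM in KO1 and 1.61 and 1.58 CPM in KO2 and KO3. Closest to Fbxl21 (0.207) were 9230104L09Rik (0.045), Chst3 (0.047) and Gm14290 (0.048), and the closest member, Btrc, came 2931st (0.162). These are descriptions over 6 libraries that share their make-up. The pseudocount of 1 shrinks the changes of genes near or below 1 CPM, such as Fgg and Fbxl21 itself (0.999 to 2.03 CPM). It hardly shrinks those of Chst3 (43.2 to 63.1 CPM) or Btrc. The neighbours of Fbxl21 and the place of Btrc thus rest on shrunken changes of Fbxl21.

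The other genes of the clock were taken from a list of 11 activators and their regulators and a list of 9 output genes. Of the activator list, 6 were higher and 5 lower by estimate (median log2 fold change 0.19), and edgeR called 1 lower and 0 higher. Before adjustment 6 of the 11 were at or under 0.05, 3 in each direction, against 27.3% of all genes. The called gene was Clock, at 78.9 to 89.1 CPM in WT and 60.6, 60.8 and 58.5 CPM in KO1 to KO3 (log2 fold change -0.48, SE 0.06, adjusted p 0.0446). Nr1d1, a repressor of Arntl, was at 253 to 296 CPM in WT and 400, 389 and 388 CPM in KO1 to KO3 (edgeR adjusted p 0.0512). The study reported lower Nr1d1 in KO lung by RT-qPCR, only at a later time of day. Its time and assay thus differ from those of the counts here. The log2 fold change of Nr1d1, 0.51, was at 0.41 to 0.55 over the 17 alternatives, with adjusted p values of 4.64e-07 to 0.372. Nr1d1 was called with the filter at 10 counts and with DESeq2. It was also called with 6 separate libraries (edgeR adjusted p 0.00887) and with the replicate block added to these (0.0397). These fits count KO2 and KO3 as separate samples, and whether the replicate numbers of the block pair the samples is not known. Without WT3 and KO1, where the merged KO2 and KO3 were the only KO sample, its log2 fold change was 0.53. For both genes KO1 went with KO2 and KO3, unlike for Per2 and Per3. Nr1d2 was at 87.6 to 98.2 CPM in WT, 95.1 CPM in KO1 and 128 and 130 CPM in KO2 and KO3 (adjusted p 0.258), which is the order seen for Per2 and Per3. Arntl and Npas2, named after their values were seen, had KO1 between WT and the other KO libraries. Arntl was at 29.5, 24.8 and 28.3 CPM in WT, 21.7 CPM in KO1 and 11.3 and 12.6 CPM in KO2 and KO3 (edgeR adjusted p 0.167). Npas2 was at 9.29 to 12.0 CPM in WT, 9.06 CPM in KO1 and 4.8 and 4.78 CPM in KO2 and KO3 (edgeR adjusted p 0.228). Bhlhe41 and Bhlhe40, also named after their values were seen, were nearer the threshold. Bhlhe41 was at 17.2 to 17.5 CPM in WT and 25.8, 35.1 and 36.7 CPM in KO1 to KO3 (edgeR adjusted p 0.0538). Bhlhe40 was at 55.8 to 69.7 CPM in WT and 82.6, 87.6 and 88.8 CPM in KO1 to KO3 (edgeR adjusted p 0.091). DESeq2 called 5 genes of the list, where it called 21.0% of all genes, and the edgeR exact test 0 (1.12%). With KO1 as the only KO sample the median of the list was -0.00.

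Of the 9 output genes, 6 were higher and 3 lower by estimate (median 0.31), and edgeR called 1, which was higher. Before adjustment 5 of the 9 were at or under 0.05, 3 higher and 2 lower, against 27.3% of all genes (2.28% called), and the median was 0.16 with KO1 as the only KO sample. Dbp, a direct E-box target that itself binds D-boxes, was at 71.2 to 73.5 CPM in WT, 150 CPM in KO1 and 215 and 211 CPM in KO2 and KO3 (log2 fold change 1.34, SE 0.15, adjusted p 0.0446). Tef, of the same family, was at 228 to 289 CPM in WT, 286 CPM in KO1 and 394 and 397 CPM in KO2 and KO3 (edgeR adjusted p 0.198). Pdk4, a metabolic gene, was at 60.6 to 76.6 CPM in WT, 35.8 CPM in KO1 and 18.9 and 18.3 CPM in KO2 and KO3 (edgeR adjusted p 0.0704). Adipocyte and cardiomyocyte marker sums were also lower in all KO than in all WT libraries, and the part of the marker lists in the levels of Pdk4, Clock and Dbp was not tested. DESeq2 called 5 of these genes (21.0% of all genes) and the exact test 2 (1.12%). The calls of Clock and Dbp were lost when any WT library was left out, since no gene of the table was then called (3346 to 4193 were at or under 0.05 before adjustment in edgeR). The log2 fold changes hardly moved then, to between -0.52 and -0.44 for Clock and between 1.32 and 1.35 for Dbp. Both calls were lost with the length and GC offset, where Clock was at -0.19 (edgeR adjusted p 0.195) and Dbp at 1.19 (0.118). Without KO1, where the merged KO2 and KO3 were the only KO sample, Clock was at -0.49 and Dbp at 1.56. With KO1 as the only KO sample they were at -0.47 and 1.05. These last 2 fits have no replicate in KO. Clock was also not called by the exact test (adjusted p 0.186).

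**Figure D4:**
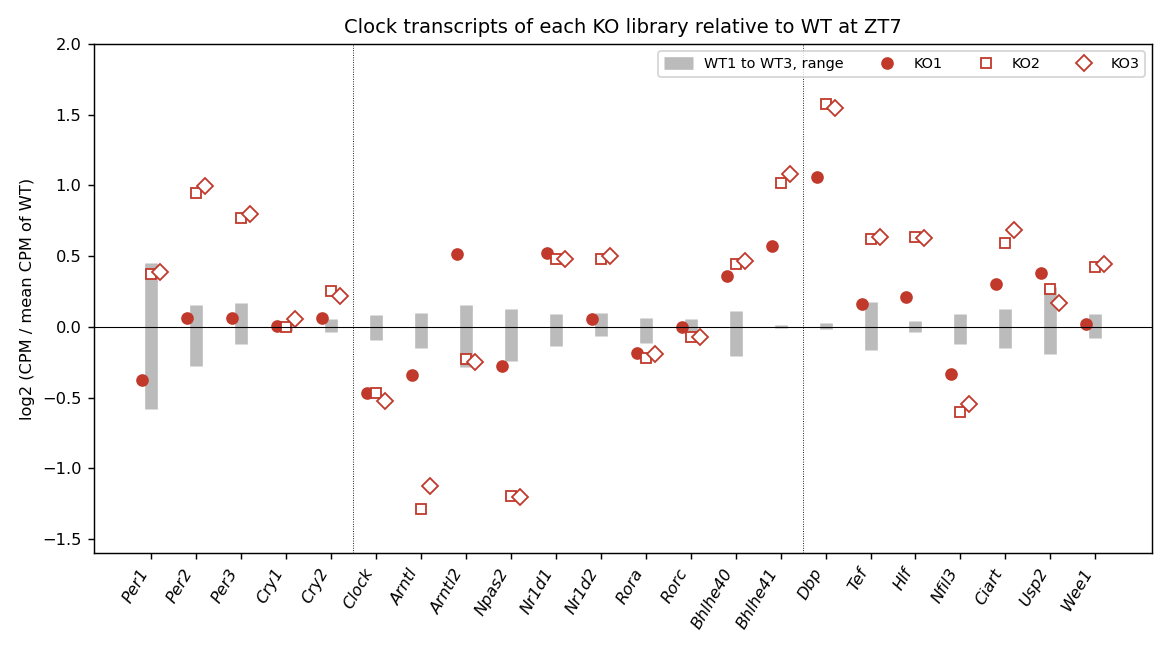
Log2 ratio of each KO library to the WT mean in CPM for the Per and Cry genes, the activators with their regulators and the output genes (divided by dotted lines), with the range of WT1 to WT3 as grey bars. KO1 (filled) lies within or near the WT bar for Per2, Per3 and Nr1d2 and beside KO2 and KO3 for Nr1d1 and Clock, and it lies between for Dbp and Arntl.

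Of 31 further regulators of PER and CRY proteins (kinases, phosphatases, ligase subunits and corepressors), all were tested, 17 were higher and 14 lower by estimate (median 0.04), and edgeR called 0. Before adjustment 10 were at or under 0.05, 7 of them higher and 3 lower, near the share of all genes (27.3%). DESeq2 called 10, where it called 21.0% of all genes, and the exact test 0. The most abundant were Ddb1, a subunit of CUL4 ligases, with a WT mean of 388 ± 3.47 CPM (SD, n = 3) against 381 ± 22.8 CPM for KO (SD, n = 2; edgeR adjusted p 0.829), and Csnk1a1, casein kinase 1 alpha, with means of 242 ± 4.08 and 260 ± 0.754 CPM (0.217). Closest to the threshold, and chosen after their values were seen, were Ncor1 (log2 fold change -0.42, adjusted p 0.0528), a corepressor used by NR1D1, and Rbx1 (0.30, adjusted p 0.0559), the RING subunit of these ligases. Over the 17 alternatives Ncor1 was at -0.51 to -0.17 with adjusted p values of 4.56e-07 to 0.523 and Rbx1 at 0.21 to 0.38 with 0.000269 to 0.653, so that calls of both depend on the setting.

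Because Per1 answers to cAMP and to glucocorticoids, genes with the same inputs were listed too. Of 12 CREB-responsive genes 11 were higher and 1 lower by estimate (median 1.06), and edgeR called 0, against 2.28% of all genes. Before adjustment 5 of the 12 were at or under 0.05 in edgeR, against 27.3% of all genes. DESeq2 called 5 and the exact test 2, against 21.0% and 1.12% of all genes. KO1 was below the WT mean in CPM for 5 of the 12, and the median was 0.15 with KO1 as the only KO sample. Btg2 was at 173 to 218 CPM in WT, 292 CPM in KO1 and 697 and 701 CPM in KO2 and KO3 (edgeR adjusted p 0.105). Dusp1, which is on both lists, was at 148 to 237, 322, 514 and 513 CPM in the same order (edgeR adjusted p 0.0859). The erythroid, hepatocyte and club cell sums were highest in KO2 and KO3 as well, and their part in these levels was not tested. Of 14 glucocorticoid receptor targets 12 were higher and 2 lower by estimate (median 0.25, and 0.20 with KO1 as the only KO sample). Before adjustment 4 of the 14 were at or under 0.05 in edgeR, all of them higher, near the share of all genes (27.3%). After adjustment edgeR called 1 higher, Lcn2, a secreted host defence protein. Lcn2 was at 69.6 to 76.3 CPM in WT and 112 to 117 CPM in KO (adjusted p 0.0446). This call was lost when any WT library was left out, and without KO1, which leaves 1 KO sample. The log2 fold change of Lcn2 was at 0.59 to 0.72 over the 17 alternatives against 0.69. DESeq2 called 3 of the list (21.0% of all genes). Alveolar type 2 and club cell marker sums were also higher in all KO than in all WT libraries, and their part in the Lcn2 level was not tested. Tsc22d3, a classic target, was at 130, 189 and 264 CPM in WT1 to WT3 and 195, 209 and 213 CPM in KO1 to KO3 (edgeR adjusted p 0.903). In WT it was lowest in WT1 and highest in WT3, as Per1 was, but its KO1 was near KO2 and KO3, unlike that of Per1. How many genes of the table share this order in WT was not counted. What set this order of the WT libraries was not tested.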

How the data were processed

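Lung RNA of 3 WT and 3 KO mice was sequenced at ZT7. The deposited table holds raw counts of reads per gene. Per the labels and the study's methods, the authors trimmed reads (Trimmomatic 0.36), aligned them to GRCm38 with STAR 2.5.3a and counted with HTSeq 0.6.0; the labels also name Picard 2.9.0. The annotation release and strand setting are not given in the sources used here, so counts of overlapping genes are uncertain. Depth was 59134950 to 71354388 counts per library.

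The tests reported here used edgeR 4.0.16 under R 4.3.3 (filterByExpr, TMM scaling, quasi-likelihood test, two-sided, Benjamini-Hochberg adjustment over all tested genes). KO2 and KO3 were summed. Calls needed adjusted p ≤ 0.05. Each SE was derived from the F statistic. CPM used TMM-scaled library sizes, and exon lengths and positions came from GENCODE M21 (GRCm38), where 97.5% of the table's genes were found. Alternatives were other scalings and filters, DESeq2 1.42.0, the exact test and 6 separate libraries. Others were a replicate block on those 6 separate libraries, a length and GC offset and libraries left out. P-values measure the spread between these samples.

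The members and lists were chosen with earlier results of these data known. Named genes were all members, Zpbp2, the called genes and the 2 most abundant others of each list, and the 3 closest profiles. Arntl, Npas2, Bhlhe41, Bhlhe40, Ncor1 and Rbx1 were added after their values were seen.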

Additional observations from a re-analysis of the deposited data

How the results depend on the processing

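Of the 17 alternatives, 16 were planned, and KO1 as the only KO sample was added after seeing the data. Members called stayed at 0 in 16 and were 3 without WT3 and KO1, where Per1 (0.68), Per2 (1.01) and Per3 (0.75) passed. Cry2, Csnk1d, Fbxl21, Per2 and Per3 kept their sign in all 17. Reversed estimates were Per1 without WT1 (-0.16) and with KO1 alone (-0.38), Cry1 (-0.03) and Csnk1e (-0.01) with library size alone, and Cry1 (-0.00) and Btrc (0.23) with the length and GC offset. The cause was not tested. Leaving out 1 library moved Per1 from -0.16 to 0.38. The 5 ratios kept their sign in all 7 of their alternatives, but 4 moved in size by over 1.5 times without WT1, WT3 or KO1. With the longest transcript as length, 4 of 9 members kept their place in the order.

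Genes called over all genes numbered 426, and 937 where every library needed 10 counts (fewer tested), 3919 with DESeq2, 209 with the exact test, 3402 with 6 separate libraries, 1157 with the replicate block, 2256 without WT3 and KO1, 0 with the offset (3435 with p ≤ 0.05 before adjustment) and 0 with KO1 alone (5070); leaving out 1 library gave 0 to 418, with 0 without any WT library and 17 without KO1. In the activator list the number of calls went from 1 to 3 with the filter at 10 counts, 5 with DESeq2 and 0 with the exact test. It was 4 with 6 libraries separate, and still 4 with the block added to these. With the offset it was 0. Leaving out any WT library gave 0, and leaving out KO2 or KO3 gave 1. In the output list the number went from 1 to 5 with DESeq2, 2 with the exact test and 0 with the offset. It was 5 with 6 libraries, and fell to 2 with the block added to these. Leaving out any WT library gave 0, and leaving out KO2 or KO3 gave 1. Other PER and CRY regulators went from 0 to 2 with the filter at 10 counts and 10 with DESeq2. They were 9 with 6 libraries, and fell to 1 with the block added to these. CREB-responsive genes went from 0 to 5 with DESeq2 and 2 with the exact test. They were 5 with 6 libraries, and 0 with the block added to these. Glucocorticoid targets went from 1 to 3 with DESeq2 and 0 with the offset. They were 2 with 6 libraries, and 1 with the block added to these. Leaving out any WT library gave 0, and leaving out KO2 or KO3 gave 1.

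Deviations from the genotype means correlated at -0.64, 0.77 and -0.83 between WT and KO libraries of replicate numbers 1 to 3. KO2 and KO3 were nearly the same, and WT3 and KO1 shared squamous epithelium transcripts. These correlations therefore cannot show whether the replicate numbers pair the samples. In the replicate block, which was fitted on the 6 separate libraries, Per2 had an estimate of 0.68 (edgeR adjusted p 0.0524) and Fbxl21 of -0.61 (0.136), and 0 members were called. With the 6 libraries separate and no block, the edgeR adjusted p was 0.0955 for Per2 and 0.0577 for Fbxl21.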
